A study of Mus musculus with 14 samples.

Results

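The type I interferon antiviral genes described here are 10 mouse genes, namely Oas1a, Oas2, Oas3, Oasl2, Ifit1, Ifit2, Ifit3, Isg15, Rsad2, and Irf7. They were chosen by name from the 53801 genes in the files, and all 10 were among the 16287 genes with enough counts to be tested. The question was whether these genes differed between tumors that responded to immune checkpoint blockade and those that did not, and whether the members of the list changed by the same amount. Type I interferons bind the receptor IFNAR1-IFNAR2 and, through JAK1 and TYK2, activate ISGF3, the transcription factor complex that turns on antiviral genes. The OAS enzymes sense double-stranded RNA, IFIT proteins bind foreign RNA and restrain its translation, ISG15 is a ubiquitin-like modifier, RSAD2 (viperin) makes a chain-terminating nucleotide, and IRF7 is the transcription factor that amplifies interferon production. In tumors the same genes can be induced in cancer cells and in infiltrating immune cells.

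Every tumor was raised from CT26, a Balb/c colon carcinoma line, which was barcoded and transplanted at 250000 cells per flank site into wild-type Balb/c hosts 6 to 8 weeks of age, so that the hosts kept their immune cells. From day 7 the mice received 5 doses of 200 μg, 1 every 3 days, of control IgG or anti-PD-1, an antibody that blocks an inhibitory receptor of T cells, and the harvest followed 3 days after the last of them. The 14 tumors came from 11 mice and formed 3 groups, with 5 control IgG tumors (14L, 14R, 16R, 17R, and 20R, from 4 mice), 4 anti-PD-1 non-responders (29L, 32R, 33L, and 33R, from 3 mice), and 5 anti-PD-1 responders (24L, 26R, 30L, 30R, and 35L, from 4 mice). Responders and non-responders had been separated by tumor size after treatment, and tumors with 1 number are the left and right flank tumors of 1 mouse, so that the p-values over tumors treat some tumors of the same mouse as separate replicates. The totals were 33237744 to 48481461 expected counts per tumor, and every pair of tumors in a group differed by far more than sampling noise (lowest chi-square per gene 19.8). Over all genes the non-responder 33R stood apart, with a chi-square per gene of 124 to 181 against the other non-responders, which were at 30.4 to 34.9 among themselves. The control 14R also differed more from the other controls (62.3 to 83.3) than they did from each other (19.8 to 35.3). Of the genes that mark colon epithelium, Krt20 was at 202 to 489 CPM (expected counts scaled to a common library size, after TMM factors) in the 14 tumors, whereas Vil1 and Cdx2 were under 1 CPM in every tumor and Vil1 was at 0 in 2. Krt8, Krt18, Cdh1, Epcam, and Lgals4 reached at most 27.1, 15.9, 10.7, 5.33, and 2.33 CPM, so Krt20 alone was high.

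In the GENCODE annotation of GRCm38 (mm10), all 10 are protein-coding genes. Oas2 (chr5:120730333-120749853, minus strand), Oas3 (chr5:120753098-120777661, minus strand), and Oas1a (chr5:120896256-120907521, minus strand) lie near each other, and Oasl2 (chr5:114896936-114912234, plus strand) lies apart on the same chromosome. Ifit2 (chr19:34550694-34576419), Ifit3 (chr19:34583531-34588731), and Ifit1 (chr19:34640871-34650009) lie in 1 cluster on the plus strand. Isg15 (chr4:156199424-156200818), Rsad2 (chr12:26442746-26456452), and Irf7 (chr7:141262706-141266481) lie alone on the minus strand. RSEM divides fragments between near-identical copies, so the levels of Oas1a, Ifit1, and Ifit3, which have close paralogs (Oas1g, Ifit1bl1, and Ifit3b among them), are less certain than those of the other members.

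ISGF3 and the IRF factors bind the interferon-stimulated response element, so promoters were searched for its core, GAAANNGAAA, on both strands. In the RefSeq table of GRCm38.p6 promoters (250 bases before to 50 after each start), 9 members were found, and Oas2 was not among them. The core was present in 6 of the 9, against 3.99% of all 27025 genes in the table. The stretches that hold it are shown because they are what most of the list shares in sequence, each 5′ to 3′ on the strand of its gene, with the matches in capitals.
Oas1a (chr5:120907526-120907570, minus strand): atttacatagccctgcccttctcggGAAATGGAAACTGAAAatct
Oas3 (chr5:120777700-120777759, minus strand): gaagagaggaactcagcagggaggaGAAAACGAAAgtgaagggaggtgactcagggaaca
Ifit1 (chr19:34640760-34640838, plus strand): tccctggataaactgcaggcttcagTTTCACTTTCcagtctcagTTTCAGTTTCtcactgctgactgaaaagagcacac
Ifit3 (chr19:34583348-34583441, plus strand): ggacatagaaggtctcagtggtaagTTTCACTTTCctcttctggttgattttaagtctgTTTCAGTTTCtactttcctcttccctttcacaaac
Isg15 (chr4:156200850-156200921, minus strand): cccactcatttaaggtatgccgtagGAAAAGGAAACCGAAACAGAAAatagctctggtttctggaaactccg
Rsad2 (chr12:26456538-26456597, minus strand): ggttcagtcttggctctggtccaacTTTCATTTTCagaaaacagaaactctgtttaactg

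The matches in Oas1a overlap each other, as do the 3 in Isg15, and in Ifit1, Ifit3, and Rsad2 the matches are on the opposite strand and read TTTCNNTTTC. Oas1a holds its matches nearest to the start of the gene, beginning 20 and 14 bases before it, Oas3 holds 1 match at 75 bases, and Ifit3 holds the most distant at 156 bases. These letters were not found in the promoter windows of Oasl2, Ifit2, and Irf7. Oas3 and Isg15, which both hold the core, stood at opposite ends of the list in the size of their change, as given below.

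Of the 10 genes, only Oas3 stood higher in responders relative to non-responders at an adjusted p under 0.05 (edgeR quasi-likelihood test, adjusted over all genes tested). This is 1 of 10 members, where 5.08% of all genes tested were higher by the same criterion. All 10 members had a positive log2 fold change, from 0.15 for Isg15 to 1.12 for Oas3, with a median of 0.55, against a median of 0.0062 over all genes tested. Without 33R, which stood apart, 0 of 10 members were called and 6 had an unadjusted p under 0.05, against 4 with it. Of all genes tested, 506 of 16521 were called higher without 33R, against 827 of 16287 with it. An unadjusted p under 0.05, in either direction, was found for 3632 genes without 33R and 4525 with it. In a bulk tumor, fewer cells that express a gene and less RNA of it per cell cannot be told apart.

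Oas3, a sensor of long double-stranded RNA, changed most. It was at 43.1, 50.4, 53.0, and 41.9 CPM in the non-responders 29L, 32R, 33L, and 33R. In the responders 24L, 26R, 30L, 30R, and 35L it was at 159, 74.2, 110, 96.6, and 72.1 CPM. Every responder was above every non-responder, and the non-responders lay close together whereas the responders spread widely, with 24L far the highest. The difference was 2.17-fold (log2 fold change 1.12, SE 0.28, edgeR adjusted p = 0.0251). Without the responder 24L the log2 fold change was 0.90 (edgeR adjusted p = 0.0674). The call was also lost without the non-responder 32R (log2 fold change 1.15, adjusted p = 0.0581) or 33R (1.08, adjusted p = 0.0647). Fewer genes were called in all without 24L (569), 32R (615), or 33R (793) than with all tumors (1612).

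Oas2, an enzyme that makes the oligoadenylates that activate RNase L, was at 33.3, 40.4, 50.1, and 58.6 CPM in the same order of non-responders. It was at 110, 59.6, 81.6, 73.7, and 54.7 CPM in the responders. Of the responders, 4 of 5 were above the highest non-responder, and 35L was below it. The log2 fold change of 0.74 (SE 0.28) did not pass the test (edgeR adjusted p = 0.100), although DESeq2 called it (adjusted p = 0.0443).

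Oasl2, an OAS-like protein with ubiquitin-like domains, was at 65.1, 85.3, 104, and 105 CPM in non-responders. In responders it was at 249, 109, 184, 149, and 111 CPM. The groups did not overlap, but the lowest responder, 26R, was only slightly above the highest non-responder. The log2 fold change was 0.84 (SE 0.34, edgeR adjusted p = 0.123). Oas3 and Oasl2 were the 2 of 10 members whose groups did not overlap, where 6.8% of all genes tested were higher in every responder than in every non-responder.

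Oas1a, the fourth member of the family, was at 64.4, 90.5, 80.1, and 157 CPM in non-responders and at 144, 90.6, 138, 114, and 93.4 CPM in responders. In CPM the non-responder 33R held the highest Oas1a level of all 14 tumors, so no responder was above the highest non-responder. This did not hold in TPM (counts per gene length, brought to 1 common total in each tumor). There 33R was at 83.5, below the responders 24L (115), 30L (105), and 30R (94.5). The log2 fold change was 0.24 (SE 0.30, edgeR adjusted p = 0.636). For its close copy Oas1g the log2 fold change was 0.03 (edgeR adjusted p = 0.965), and which of the 2 genes a fragment came from is an estimate.

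The IFIT genes overlapped between the groups. Ifit1 was between 20.0 and 58.3 CPM in non-responders and between 29.0 and 71.6 CPM in responders, with a log2 fold change of 0.35 (SE 0.37, edgeR adjusted p = 0.572). Ifit2 was between 47.1 and 64.9 CPM in non-responders and between 56.0 and 119 CPM in responders, with a log2 fold change of 0.45 (SE 0.20, edgeR adjusted p = 0.155). Ifit3 was between 28.2 and 77.2 CPM in non-responders and between 41.3 and 122 CPM in responders, with a log2 fold change of 0.60 (SE 0.38, edgeR adjusted p = 0.321). The lowest responder was 26R and the highest 24L for each of the 3 genes, and 29L and 33R were the lowest and highest non-responders in CPM. In TPM the highest non-responder was 33L for Ifit1 (21.3) and Ifit2 (22.6).

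Isg15 changed least. It was at 40.8, 52.3, 54.5, and 120 CPM in non-responders and at 113, 52.0, 84.5, 66.8, and 53.2 CPM in responders. In CPM the highest of all tumors was the non-responder 33R, and 2 of 5 responders lay below the median of the non-responders. In TPM the highest was the responder 24L, at 298 against 217 in 33R. The log2 fold change was 0.15 (SE 0.35, edgeR adjusted p = 0.824), and without 24L it turned to -0.057.

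Rsad2 had the widest spread among responders relative to its mean. It was at 11.8, 14.6, 24.0, and 26.7 CPM in non-responders and at 56.0, 13.2, 40.2, 21.9, and 19.5 CPM in responders, where 26R was below all but 1 of the non-responders. The log2 fold change was 0.65 with the largest error of the list (SE 0.41, edgeR adjusted p = 0.314). Irf7 was at 130, 205, 180, and 329 CPM in non-responders and at 456, 213, 312, 278, and 230 CPM in responders. All 5 responders were above the median non-responder but 4 of them were below 33R in CPM, and the log2 fold change was 0.50 (SE 0.32, edgeR adjusted p = 0.326). In TPM, 33R was at 177.87, with only the responder 26R (165.02) below it and 35L (177.91) almost level.

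**Figure D1:**
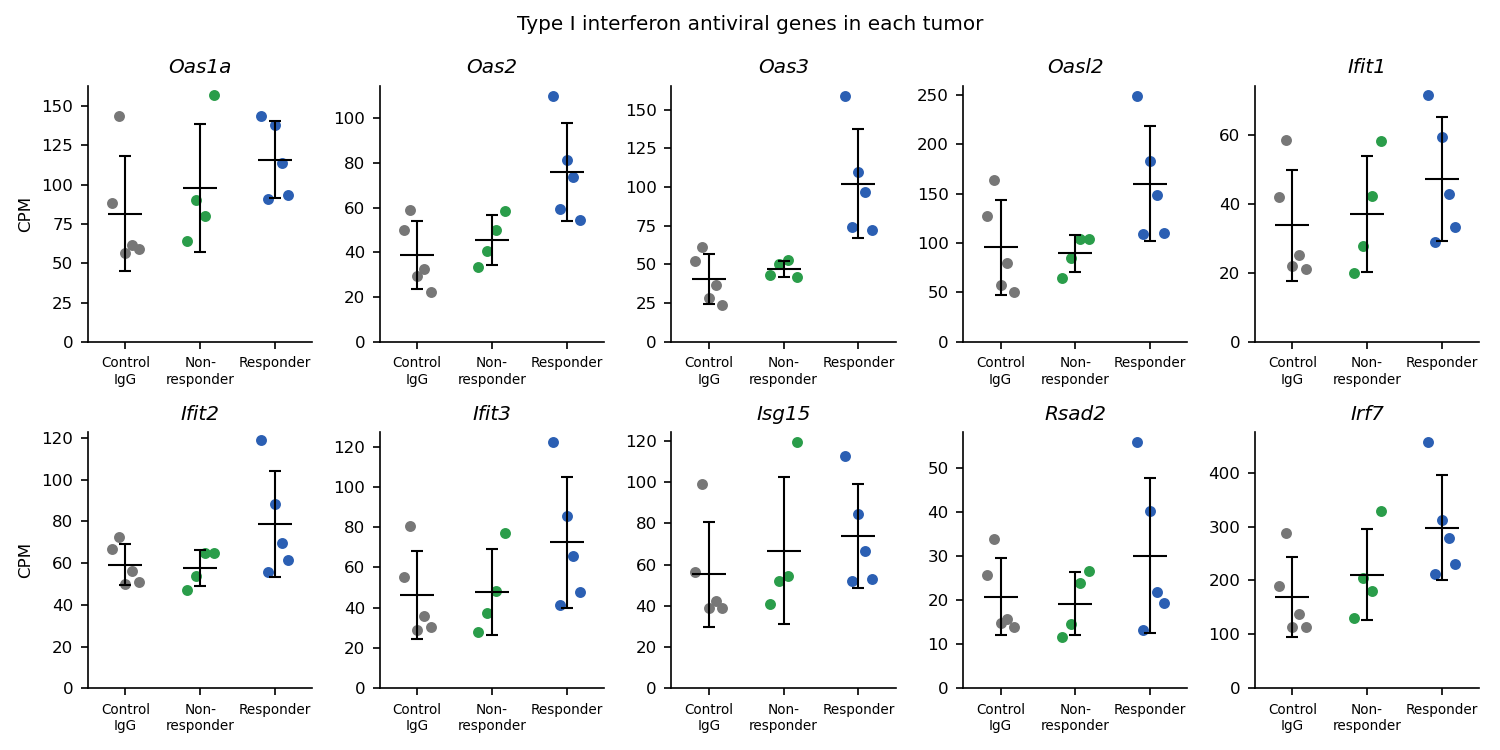
CPM (linear axis from 0) of each of the 10 genes in each tumor, with points for tumors, horizontal lines for group means, and bars for the SD, in control IgG tumors (grey, n = 5), non-responders (green, n = 4), and responders (blue, n = 5). Oas3 in the 5 responders lay between 72.1 and 159 CPM, above all tumors of the other groups, whereas Isg15 overlapped across the 3 groups.

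Against control IgG tumors, Oas3 and Oas2 were higher in responders, which is 2 of 10 members where 7.88% of all genes tested were higher. This comparison uses the same responder tumors as the one above, so the pair is not independent. All 10 members were again positive, from 0.41 for Ifit2 to 1.34 for Oas3, with a median log2 fold change of 0.59 against -0.011 over all genes tested.

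In the control IgG tumors 14L, 14R, 16R, 17R, and 20R, Oas3 was at 52.4, 61.4, 28.4, 36.5, and 23.7 CPM. All 5 responders were above all 5 controls, which Oas3 alone of the 10 members showed, where 8.34% of all genes tested did. The difference was 2.52-fold (log2 fold change 1.34, SE 0.26, edgeR adjusted p = 0.00491), and the call held with each of the 14 tumors left out in turn. Oas2 was at 50.2, 58.9, 29.4, 32.8, and 22.5 CPM in the same controls, so that 4 of 5 responders were above the highest control. Its log2 fold change was 0.97 (SE 0.26, edgeR adjusted p = 0.0242). The call was lost without 24L (log2 fold change 0.80, adjusted p = 0.0752) or 16R (0.89, adjusted p = 0.0599). It was also lost without 17R (0.92, adjusted p = 0.0569) or 20R (0.83, adjusted p = 0.0621). Fewer genes were called higher in all without 24L (748), 16R (982), 17R (999), or 20R (751) than with all tumors (1284).

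Irf7 was next, at 190, 289, 115, 138, and 115 CPM in the controls, with a log2 fold change of 0.81 (SE 0.30, edgeR adjusted p = 0.0881). Here 14R was high and overlapped the responders, and DESeq2 called the gene (adjusted p = 0.0338). Oasl2 had a log2 fold change of 0.74 (SE 0.32), with controls between 50.1 and 164 CPM, and did not pass the test (edgeR adjusted p = 0.137). The other 6 members had log2 fold changes between 0.41 and 0.65 and did not pass. When 14R was left out, 5 of 10 members were called, namely Oas1a, Oas2, Oas3, Oasl2, and Irf7, and without 24L only Oas3 was. Of all genes tested, 1147 of 16203 were called higher without 14R and 748 of 16160 without 24L, against 1284 of 16287 with all tumors.

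**Figure D2:**
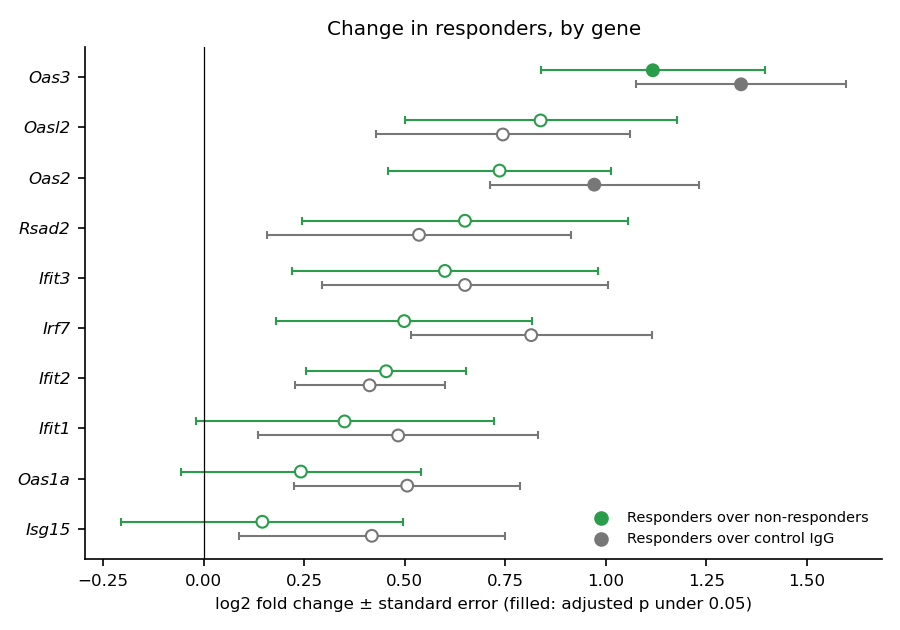
Log2 fold change with its standard error (x axis) for each gene, in responders over non-responders (green) and over control IgG tumors (grey), with filled points for an adjusted p under 0.05. Oas3 was filled in both comparisons, at 1.12 and 1.34, and Oas2 in the comparison with control IgG tumors, at 0.97.

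Between non-responders and control IgG tumors, none of the 10 members was called by edgeR, where 0.0% of all genes tested were, and DESeq2 also called none of them, with 18 genes called in all. No member had an unadjusted p under 0.05 in edgeR. The log2 fold changes lay between -0.11 for Rsad2 and 0.32 for Irf7 (SE 0.40 and 0.31), with adjusted p between 0.931 and 0.982. A p above the threshold does not show that the levels were equal.

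Over tumors, some members changed more than the others, but no member passed the adjusted threshold with the tumors of a mouse combined. To compare them free of the scaling between libraries, the log2 CPM of each member was taken relative to the mean of the other 9 in the same tumor, and exact permutation tests over tumors (two-sided) compared the groups, with adjustment over the 10 members. For Oas3 this ratio was 0.27, 0.40, 0.13, 0.32, and 0.22 in the responders 24L, 26R, 30L, 30R, and 35L, and 0.13, -0.04, -0.22, and -1.06 in the non-responders 29L, 32R, 33L, and 33R. The responders were all above the non-responders, although 30L and 29L were almost level, and the low value of 33R made the non-responders spread.

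Oas3 rose more than the other members in responders over non-responders, by 0.57 on the log2 scale (n = 5 and 4, exact p = 0.00794, adjusted p = 0.0397). Oasl2 did too, by 0.26 (n = 5 and 4, exact p = 0.00794, adjusted p = 0.0397), with ratios between 0.91 and 1.01 in responders and between 0.41 and 0.86 in non-responders. A p of 0.00794 is the smallest that 5 against 4 tumors allow. Both calls were lost when any of the 9 tumors was left out (adjusted p between 0.0595 and 0.143). Without 1 responder or 1 non-responder the smallest p is 0.0286 or 0.0179, so several members must reach it before any can pass. The losses therefore cannot show whether a call rested on 1 tumor. That of Oas3 was also lost on the log2(TPM + 1) scale (adjusted p = 0.0529). Isg15 was lower relative to the others in responders by 0.38 (n = 5 and 4, exact p = 0.0159, adjusted p = 0.0529), which narrowly missed the threshold. It passed the same test with counts summed over paralogs (adjusted p = 0.0265) and on the log2(TPM + 1) scale (adjusted p = 0.0397). Without 33R the Oas3 difference was 0.31, that of Oasl2 0.16, and that of Isg15 -0.21.

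Against control IgG tumors, Oas3 rose more than the other members by 0.73 and Oas2 by 0.34 (n = 5 and 5, exact p = 0.00794 and adjusted p = 0.0397 for both). The ratios of Oas3 were between -0.65 and -0.30 in controls and between 0.13 and 0.40 in responders, so the groups did not overlap. The calls of Oas3 and Oas2 were lost without 20R (adjusted p = 0.0529 for both) or 26R (adjusted p = 0.0794 for both). Isg15 was again lower relative to the others, by 0.28 (n = 5 and 5, exact p = 0.0159, adjusted p = 0.0529), and Ifit1 by 0.21 (n = 5 and 5, exact p = 0.0238, adjusted p = 0.0595). With the tumors of a mouse combined, the smallest p that 4 against 3 or 4 mice allow is 0.0286, and no member passed after adjustment (exact permutation tests, adjusted p = 0.0952 for Oas3 and Oasl2 over non-responders, and 0.0571 for Oas3 and Oas2 over control IgG tumors).

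**Figure D3:**
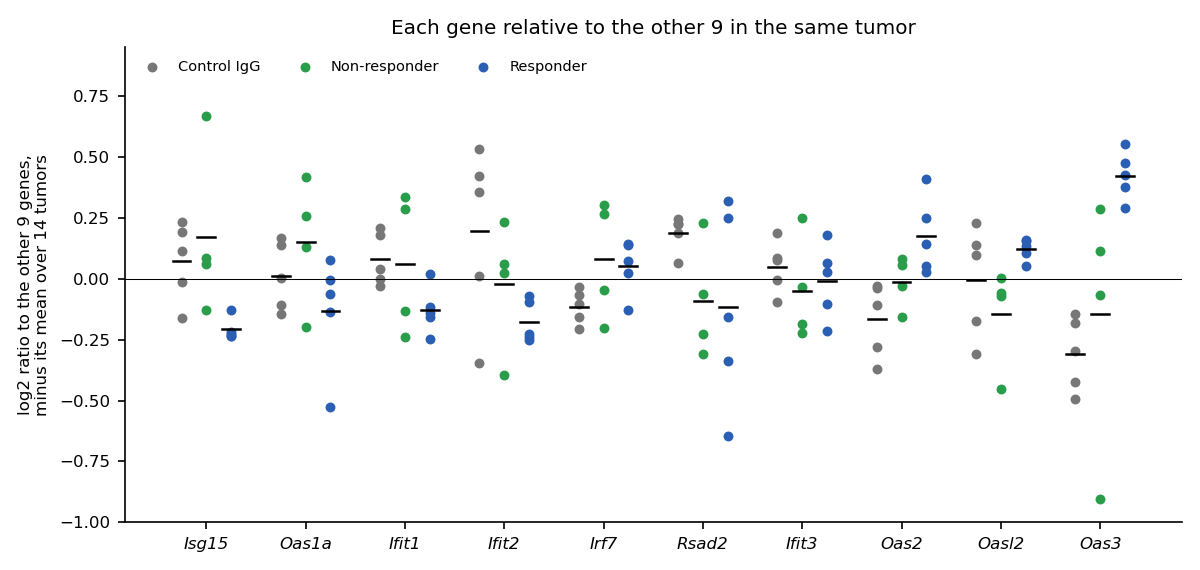
Log2 ratio of each gene to the mean of the other 9 in the same tumor, minus its mean over the 14 tumors (y axis), by gene and group, with points for tumors and lines for group means. Oas3 stood highest in responders, and the non-responder 33R stood apart with high Isg15 and low Oas3.

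Much of the variation was between tumors of 1 group. Relative to the mean over the 14 tumors, the 10 members averaged 1.10 (log2) in 24L and 0.69 in 30L, but -0.10 in 26R and 0.01 in 35L, although all 4 are responders. The controls ran from -0.81 in 20R to 0.50 in 14R, and the non-responders from -0.65 in 29L to 0.38 in 33R. In CPM the responder 24L was the highest of all 14 tumors for 8 members, and 33R for Oas1a and Isg15. In TPM, 24L was also the highest for Oas1a (115, with 33R at 83.5) and Isg15 (298, with 33R at 217). Within the controls, 14R was highest for all 10 members in CPM, whereas in TPM 14L was slightly above it for Oas2 and Ifit2.

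Tumors of the same mouse also differed. In CPM, all 10 members were lower in 14L than in 14R, by a median of -0.44 on the log2 scale. All 10 were higher in 30L than in 30R, by a median of 0.32. In TPM, Oas2 and Ifit2 were higher in 14L than in 14R, and Oas2 and Oas3 were lower in 30L than in 30R. In mouse 33, 9 of 10 were lower in 33L than in 33R in CPM, by up to -1.13 for Isg15, and only Oas3 was higher in 33L, by 0.34. In TPM, Oas2, Oasl2, Ifit1, Ifit2, and Rsad2 were higher in 33L as well, with Oasl2 at 59.1 against 43.4. Oas1a, Ifit3, Isg15, and Irf7 were lower in 33L on both scales. Each pair is 1 mouse, with no replicate of the difference.

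**Figure D4:**
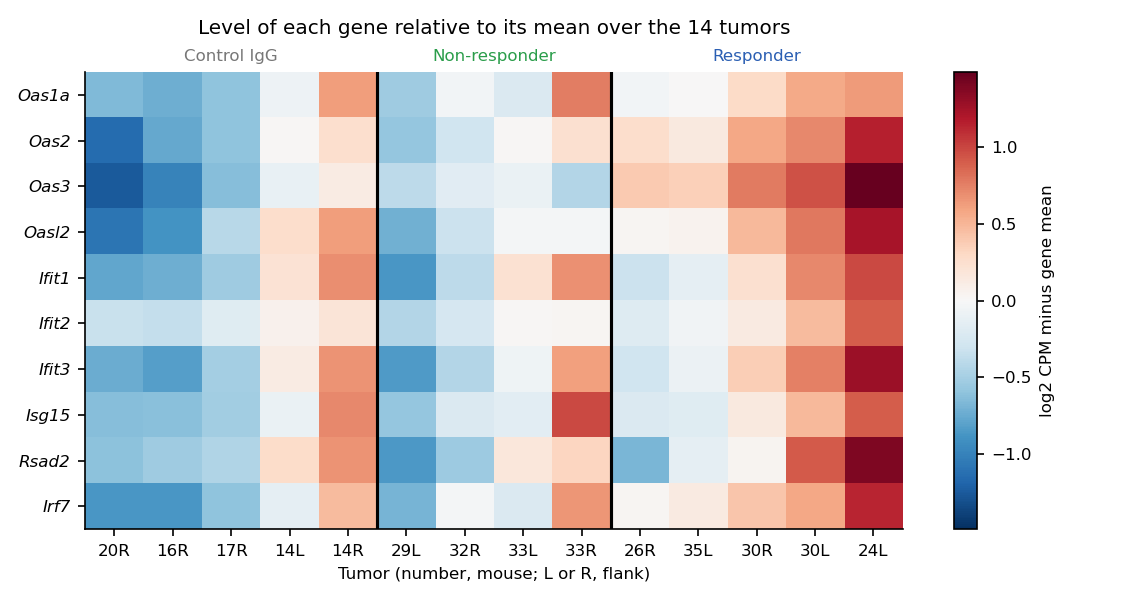
Log2 CPM of each gene minus its mean over the 14 tumors (color), by tumor (columns, ordered within each group by their mean) and gene (rows). The responder 24L (mean 1.10) and the control 20R (mean -0.81) were the extremes, and 33R was high for most genes but low for Oas3.

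Levels can be compared between genes per length, in TPM. Irf7 and Isg15 led in every group, at 237 ± 81.9 and 194 ± 67.4 TPM (SD, n = 5) in responders, and at 138 ± 34.3 and 142 ± 52.1 TPM (SD, n = 4) in non-responders. Rsad2 was lowest in every group, at 10.9 ± 6.41 TPM (SD, n = 5) in responders. Oas3 was ninth in control IgG tumors, at 11.4 ± 4.44 TPM (SD, n = 5), and in non-responders, at 12.3 ± 2.74 TPM (SD, n = 4). In responders it was sixth, at 31.2 ± 11.6 TPM (SD, n = 5), next to Ifit2 at 30.0 ± 9.66 TPM, Oas2 at 27.4 ± 8.24 TPM, and Ifit1 at 25.2 ± 9.71 TPM, which do not differ beyond their spread. The ranges of most neighbours in the order overlapped across tumors. Only the gap between Irf7 and Oas1a and that between Oas3 and Rsad2 in non-responders were free of overlap. Within single tumors some overlapping neighbours kept their order, with Irf7 above Isg15 in all 5 responders and Oas3 above Rsad2 in all 5 controls. Others did not, with Isg15 above Irf7 in 3 of 5 controls and 2 of 4 non-responders.

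Across the 14 tumors the members varied together, with Pearson's r between 0.63 and 0.98 over the 45 pairs (median 0.90). Ifit3 was the most like the other 9 (r = 0.98) and Oas3 the least (r = 0.82). The 8 genes outside the list with the most similar pattern, among 12194 genes, were Xaf1 (r = 0.99), Ifit3b, Rtp4, Dhx58, Ifi44, Phf11b, Nmi, and Ifi44l (r = 0.97). These values describe 14 tumors that share groups and mice. None of the 8 was called in responders over non-responders, with log2 fold changes between 0.26 for Nmi and 0.91 for Ifi44l, and against control IgG tumors Ifi44l was called (log2 fold change 1.01, edgeR adjusted p = 0.0414).

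RNA of the type I and lambda interferons themselves was hardly detected in these bulk tumors at harvest. Interferon protein was not measured here. Of 20 interferon genes (1 beta, the alpha genes, epsilon, kappa, zeta, and lambda), none had enough counts to be tested, and the 20 together had 1 to 11 counts per control IgG tumor, 1 to 8 per non-responder, and 1 to 4 per responder. Ifnb1 was the only one with counts in responders, with at most 4. All the alpha genes were at 0 in every tumor, which in the smallest library allows 3 counts, or 9.03e-06% of the total, counting error only.

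Components that carry the signal were read gene by gene. STAT2, the ISGF3 subunit specific to type I and III signaling, rose from 62.6 ± 7.71 CPM (SD, n = 4) to 121 ± 37.2 CPM (SD, n = 5), with a log2 fold change for Stat2 of 0.95 (edgeR adjusted p = 0.0251). The kinases Tyk2 and Jak1, which sit on the receptor, rose by 0.40 (edgeR adjusted p = 0.0436) and 0.38 (edgeR adjusted p = 0.0357). Irf9 (0.45, edgeR adjusted p = 0.105), Ifnar1 (0.24, adjusted p = 0.0656), and Ifnar2 (0.10, adjusted p = 0.395) did not pass the test.

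Among sensors of nucleic acids and their adaptors, 5 of 17 were higher in responders than in non-responders, where 5.08% of all genes tested were. They were the endosomal receptors Tlr9 (log2 fold change 1.24) and Tlr3 (0.72), the adaptors Tmem173 (STING, 0.61) and Mavs (0.35), and the kinase Ikbke (0.56). Of 6 negative regulators, the phosphatase Ptpn6 was higher (0.58, edgeR adjusted p = 0.0102), and Usp18, which is itself induced by interferon and blocks its receptor, was at 0.05 (edgeR adjusted p = 0.952). None of the 8 tested paralogs of the members was called, with Ifit3b at 0.69 (adjusted p = 0.279) and Oasl1, the other OAS-like gene, at 0.27 (adjusted p = 0.446).

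Other antiviral effectors were higher for 14 of 42 genes, where 5.08% of all genes tested were, with a median log2 fold change of 0.44. The ADP-ribosyltransferase Parp14 (1.12), the membrane protein Ifitm1 (0.94), Slfn5 (0.89), Uba7 (0.84), the activating enzyme of the ISG15 pathway, and Dtx3l (0.83) changed most among those called. The dynamin-like Mx1 (0.63, edgeR adjusted p = 0.297) and Mx2 (0.34, adjusted p = 0.614) and the tethering factor Bst2 (0.45, adjusted p = 0.319) did not pass the test.

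The GBP and IRG GTPases, which interferon gamma induces strongly, were higher in 16 of 17, where 5.08% of all genes tested were, with a median log2 fold change of 1.23 and a range from 0.84 to 1.91. The interferon gamma list was higher in 6 of 10, with Ifng itself at 1.81 (edgeR adjusted p = 0.0139), Ciita, the regulator of MHC class II, at 2.16, and the chemokine Cxcl9 at 1.38. Cxcl10 was at 1.19 (edgeR adjusted p = 0.0546). The log2 fold changes of all 17 GTPases were above those of 9 of the 10 antiviral genes, whose median was 0.55, and the difference between the lists was not tested. The core GAAANNGAAA was present in the promoters of 10 of the 10 GTPases in the table.

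**Figure D5:**
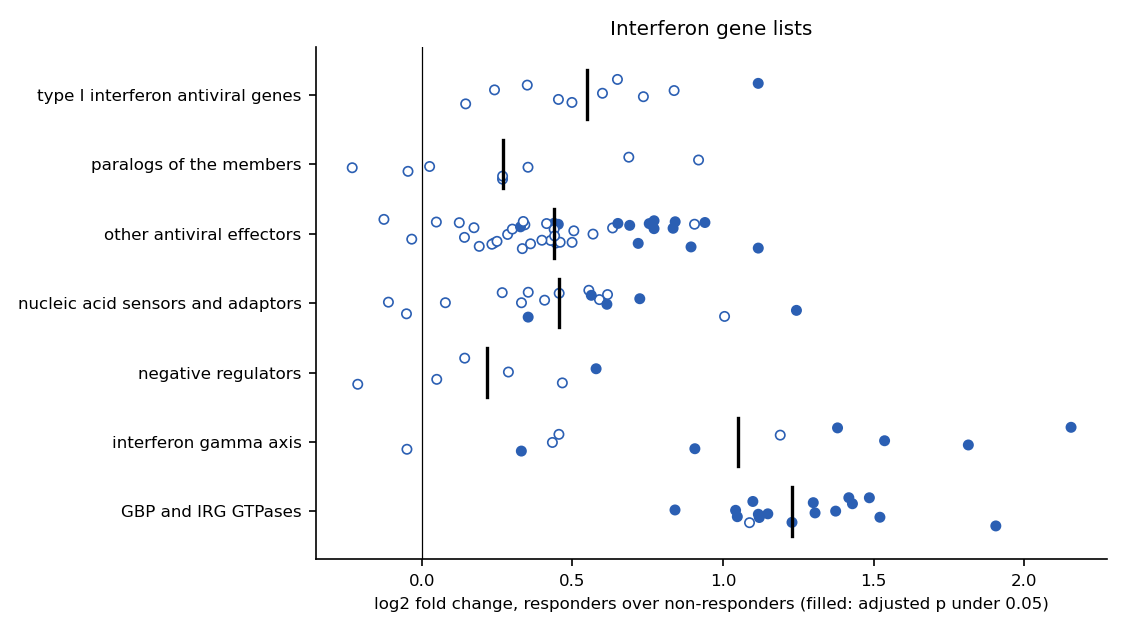
Responder over non-responder log2 fold change (x axis) for each tested gene of 7 lists (rows), with filled points for an adjusted p under 0.05 and black lines for the median of each list. The antiviral genes had 1 of 10 filled and a median of 0.55, and the GBP and IRG GTPases 16 of 17 and a median of 1.23.

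Against control IgG tumors Tyk2 and Stat2 were higher in responders (log2 fold change 0.43 and 0.87), and the lists gave 7 of 17 sensors, 16 of 42 other effectors, 2 of 8 paralogs, 16 of 17 GTPases, and 7 of 10 genes of the interferon gamma list higher in responders, where 7.88% of all genes tested were. Of the negative regulators, Ptpn6 was higher and Ptpn2, named after its values were seen, lower (log2 fold change -0.28, edgeR adjusted p = 0.0341). No gene of any list was called between non-responders and control IgG tumors.

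Genes that mark immune cells moved in the same comparison. T cell genes were higher in responders than in non-responders for 7 of 8, where 5.08% of all genes tested were, with summed levels of 40.2 to 80.0 CPM in responders, 22.6 to 28.0 CPM in non-responders, and 17.2 to 41.0 CPM in controls. Dendritic cell genes were higher for 5 of 6, with summed levels of 30.6 to 45.0 CPM in responders, 16.5 to 21.7 CPM in non-responders, and 17.8 to 29.4 CPM in controls. For plasmacytoid dendritic cells, known as a rich source of type I interferon, 4 of 8 were higher (Siglech, Klk1, Pacsin1, and Spib) and Cox6a2 was lower, with summed levels of 387 to 642 CPM in responders, 335 to 498 CPM in non-responders, and 303 to 563 CPM in controls, of which Bst2 made up most.

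Macrophage genes were higher for 1 of 8 (1854 to 2269 CPM summed in responders and 1499 to 1831 CPM in non-responders), B cell genes for 1 of 4 tested, and neutrophil genes for 1 of 6, where the share over all genes tested was 5.08%. None of 6 epidermis, 6 muscle, and 6 endothelium genes was called. No gene of these marker lists was at 0 in every tumor of a group. The part of these cells in the levels of the antiviral genes was not tested. The estimated fragment length was 277.5 to 287.8 bases in non-responders, above the 269.5 to 277.0 bases of responders and the 268.7 to 277.7 bases of controls except for the top of the last range, and its part in the result was likewise not tested.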

How the data were processed

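RNA was sequenced from 14 bulk CT26 tumors, as paired-end reads of 150 bases in mRNA libraries. The authors' processing notes name STAR, RSEM, and mm10, and the annotation release is not given in the sources used here. The expected counts deposited by the authors are RSEM's estimates of fragments per gene, not normalized, in which a fragment with several possible genes is shared out. The TPM values deposited by the authors are those estimates per effective length, brought to 1 common total in each tumor. The effective lengths deposited by the authors served an offset for gene length and the fragment length estimates, and the deposited FPKM values were not used.

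Groups came from the labels, and the mouse of a tumor from its number. Expected counts were rounded, and totals were 33237744 to 48481461 per tumor, so that 3 counts were at most 9.03e-06% of a total, counting error only. CPM are the counts scaled to a common library size after TMM factors. In R 4.3.3, edgeR 4.0.16 (filterByExpr, quasi-likelihood test, Benjamini-Hochberg adjustment over all 16287 genes tested, threshold 0.05) was fitted to all 14 tumors without covariates, and tested on simulated data first. The prior count was 2 for log2 CPM, and the pseudocount 1 for TPM. For sizes of change, exact permutation tests over tumors were used, two-sided (scipy 1.17.1). The alternatives were DESeq2 1.42.0, limma-voom 3.58.1 with and without mouse, counts summed per mouse or over paralogs, DESeq2 size factors, upper quartile factors, no filter, the compared groups alone, TPM, the length offset, a prior count of 0.5, and the omission of each tumor.

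The members, the gene lists, and the rule for named genes were chosen with earlier results of these data known. The rule names the 10 members, from each list the called genes with the largest changes in responders over non-responders (at most 6) beside a few fixed pathway genes, and the 8 genes most like the members. The colon genes were added after the data had been examined. Some results are not reported here. Barcodes, IHC, and cell lines were not analysed here.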

Additional observations from a re-analysis of the deposited data

Results flagged for a closer look

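Of 60 sets of values (each gene in each group, as CPM and as the ratio to the other 9 genes), 2 held a tumor far from the others by Dixon's test, and chance gives about 1 in 20 sets. The ratio of Oasl2 in the non-responder 33R was 0.41, against 0.79 for the nearest of the other non-responders. The ratio of Isg15 in the responder 26R was -0.17, against -0.26 for the nearest of the other responders, which lay within a range of -0.28 to -0.17 with it.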

How the results depend on the processing

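In responders over non-responders, 1 of 10 members was called, and 2 with DESeq2 (Oas2 and Oas3), 3 on the log2(TPM + 1) scale (Oas2, Oas3, and Ifit2), and 0 to 1 when single tumors were left out. Of all 16287 genes, 827 were called higher by edgeR, 1273 with DESeq2, and 1969 on the log2(TPM + 1) scale. Oas3 was called in each of the 11 other fits to all tumors or mice. Against control IgG tumors 2 members were called, 2 to 3 under the 11 alternatives, and 1 to 5 when single tumors were left out. Between non-responders and control IgG tumors none was called under any of them. The number of members that differed in size of change from the others was 2 in both comparisons. It was 0 in both with counts summed per mouse, 5 against control IgG tumors on the log2(TPM + 1) scale, 0 to 2 over non-responders, and 0 to 5 over control IgG tumors when single tumors were left out. Without 1 responder or 1 non-responder the smallest p is 0.0286 or 0.0179, and neither Oas3 nor Oasl2 over non-responders then passed. On the log2(TPM + 1) scale Isg15 passed in place of Oas3 over non-responders. With counts summed over paralogs Isg15 passed beside Oas3 and Oasl2, so that the number was 3. The median log2 fold change of all genes in responders over non-responders was 0.17 on the log2(TPM + 1) scale, against 0.0062 by edgeR.

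Directions that turned were of changes that had not passed the test. In non-responders over control IgG tumors, Oasl2 was at 0.029 with limma-voom and 0.015 with counts summed per mouse, and Ifit3 at -0.049 on the log2(TPM + 1) scale and -0.021 with the length offset. Relative to the others, Rsad2 was at 0.032 in responders over non-responders with counts summed per mouse. Leaving out single tumors gave ranges across 0 for Isg15 in responders over non-responders (-0.057 to 0.60), and in non-responders over control IgG tumors for Oas1a (-0.075 to 0.56), Oasl2 (-0.26 to 0.18), Ifit1 (-0.19 to 0.42), Ifit2 (-0.12 to 0.044), Ifit3 (-0.30 to 0.34), Isg15 (-0.19 to 0.58), and Rsad2 (-0.33 to 0.13). It did so too for the ratios of Ifit3 (-0.019 to 0.14), Rsad2 (-0.13 to 0.11), and Irf7 (-0.12 to 0.045) in responders over non-responders. The cause was not tested.

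Over all genes, 1612 were called in responders over non-responders (827 higher), 2634 with DESeq2, 2973 with mouse as a random effect, 689 with the 2 groups alone (487 higher), 1106 without a filter (689 higher), 2160 on the TPM scale (1969 higher), and 569 to 1978 when single tumors were left out. Against control IgG tumors 2147 were called (1284 higher), 1827 on the TPM scale (1522 higher), and 1190 to 3385 without single tumors. No paired analysis was possible because the groups share no mouse and no replicate number.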
